A study of Homo sapiens with 6 samples.

Results

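The hnRNP and SR splicing proteins were followed in mRNA sequencing of MDA-MB-453, an established human breast cancer cell line, cultured for 5 days with 100 nM 25(OH)D, the circulating form of vitamin D, or with solvent alone. Both groups had 3 libraries (control 1 to 3 and 25(OH)D 1 to 3), all from the same line in the same serum-containing medium, and p-values measure the spread between these libraries of 1 cell line. The members were taken by name from the deposited count table: every gene whose symbol is HNRNP followed by letters or digits, with the pseudogenes left out, every SRSF gene with a number, and TRA2A, TRA2B, SYNCRIP and RALY. The rule gave 39 of the 33451 genes listed, 25 in the hnRNP group (SYNCRIP and RALY included) and 14 in the SR group (both TRA2 genes included). It used no measured value, but the members were chosen with earlier results of these data known. A total of 36 members had enough counts to be tested. HNRNPCL1 (2 counts in each control library and 0 in each 25(OH)D library), HNRNPCL2 (0 to 10 counts) and SRSF12 (0 to 2 counts) were listed but not tested.

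Heterogeneous nuclear ribonucleoproteins coat nascent transcripts and influence which exons are spliced, how the message is exported and how long it lasts, and many of them act as repressors at exonic or intronic silencers. SR proteins carry an RNA recognition motif and a tail rich in arginine and serine, bind exonic enhancers and recruit the spliceosome. The opposing pair of HNRNPA1 and SRSF1 is the textbook case, in which their balance sets the choice between competing splice sites. Many genes of both families also limit their own output by splicing a fraction of their transcripts into forms with an early stop codon, which nonsense-mediated decay removes.

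The libraries held between 33268860 and 40928176 counts, and 3 counts, taken as the floor, were worth 0.0720 to 0.0921 CPM (counts scaled to a common library size with TMM factors). Mitochondrial genes took 7.85% to 7.99% of the counts in control and 8.89% to 9.24% with 25(OH)D. All 10 markers of luminal breast cells were present, at 18.9 to 1869 CPM, with summed levels of 4460 to 4606 CPM in control and 4654 to 4684 CPM with 25(OH)D. Of the 9 listed markers of other cell types, 8 stayed at or under 0.683 CPM in every library, including the hormone receptors ESR1 and PGR, the basal keratins KRT5 and KRT14, and CD3E, which was at 0 in 5 libraries. COL1A1 was the exception, at 32.0 to 38.5 CPM, and the list summed to 36.6 to 39.3 CPM in control and 33.3 to 34.9 CPM with 25(OH)D. The part of these shifts in the results was not tested. In bulk RNA of this kind, fewer cells of a type and less RNA per cell cannot be told apart.

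Sequences from RefSeq (GRCh38.p14) covering 250 bases before to 50 bases after the annotated start were matched to 36 of the 39 members, in 50 windows. HNRNPA1, SRSF2 and TRA2A had no entry. The E-box CACGTG, read on both strands as the same letters, lay in 9 member windows (18.0%) and in 7.26% of all 35116 windows of that length. These 9 windows belonged to 8 members (HNRNPA3, HNRNPD, HNRNPDL, SYNCRIP, HNRNPH3, HNRNPM, HNRNPUL1 and HNRNPH2). By gene, 8 of the 36 matched members had an E-box, against 8.77% of all 27305 genes with a window. Of the 22 matched members that were lower with 25(OH)D at an adjusted p under 0.05, 7 had it and most did not. A link between the E-box and the fall was not tested. Member windows were also richer in G and C, with a median of 64.8% against 58.7% over all windows, and the part of base composition in the E-box share was not tested. The windows of HNRNPA3, HNRNPD, SYNCRIP and HNRNPM are given here 5′ to 3′ on the strand of the gene, because these 4 members fell with 25(OH)D and come from 3 different structural classes, with the E-box in capitals.

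HNRNPA3, chr2:177212544-177212843, plus strand: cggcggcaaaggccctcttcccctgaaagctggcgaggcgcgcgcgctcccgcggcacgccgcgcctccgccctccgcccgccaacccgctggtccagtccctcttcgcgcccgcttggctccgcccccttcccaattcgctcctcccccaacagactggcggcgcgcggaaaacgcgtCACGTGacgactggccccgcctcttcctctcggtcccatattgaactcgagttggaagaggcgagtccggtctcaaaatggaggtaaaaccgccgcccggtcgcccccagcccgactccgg
HNRNPD, chr4:82373942-82374241, minus strand: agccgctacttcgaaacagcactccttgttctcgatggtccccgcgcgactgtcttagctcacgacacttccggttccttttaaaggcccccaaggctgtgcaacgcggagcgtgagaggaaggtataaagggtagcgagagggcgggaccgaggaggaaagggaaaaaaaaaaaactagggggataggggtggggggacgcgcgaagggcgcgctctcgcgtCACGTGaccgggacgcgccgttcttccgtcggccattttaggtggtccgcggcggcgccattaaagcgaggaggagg
SYNCRIP, chr6:85643821-85644120, minus strand: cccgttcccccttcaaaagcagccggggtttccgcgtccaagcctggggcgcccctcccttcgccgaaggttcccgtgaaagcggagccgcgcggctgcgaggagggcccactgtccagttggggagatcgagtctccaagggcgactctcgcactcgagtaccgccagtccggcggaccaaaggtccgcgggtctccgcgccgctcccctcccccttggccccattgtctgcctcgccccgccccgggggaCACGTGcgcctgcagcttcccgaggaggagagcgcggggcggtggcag
HNRNPM, chr19:8444725-8445024, plus strand: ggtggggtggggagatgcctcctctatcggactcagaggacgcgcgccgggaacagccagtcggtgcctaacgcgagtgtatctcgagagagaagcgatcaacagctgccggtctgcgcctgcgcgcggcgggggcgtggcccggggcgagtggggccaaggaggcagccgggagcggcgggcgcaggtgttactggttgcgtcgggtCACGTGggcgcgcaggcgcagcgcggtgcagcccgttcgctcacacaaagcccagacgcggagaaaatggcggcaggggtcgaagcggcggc

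The E-box began 71 bases before the annotated start in HNRNPA3, 27 bases before it in HNRNPD and 42 bases before it in HNRNPM, and just past the start in SYNCRIP. Other motifs were searched on both strands in the same windows. The CCAAT box (CCAAT) was in 48.0% of member windows and 34.6% of all windows, and the GC box (GGGCGG) in 62.0% and 45.0%. The ETS motif CCGGAAG (10.0% against 10.3%) and the TATA box TATAAA (12% against 11.5%) were about as common in both. Neither the cAMP response element TGACGTCA (0 member windows, 1.85% of all windows) nor the exact DR3 element, the spaced repeat to which the vitamin D receptor binds (0 member windows, 0.0057% of all windows) was found near a member's start. The exact DR3 element is so rare over all windows that its absence could not have told the members from other genes. These are matches of letters in a short window, and binding was not measured.

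Of the 36 members tested, 24 were lower with 25(OH)D at an adjusted p under 0.05 (edgeR's quasi-likelihood test, Benjamini-Hochberg over 18183 genes), where 16.5% of all genes tested were lower. No member was higher, where 17.3% of all genes were. At an unadjusted p under 0.05, 1 member was higher (HNRNPH1), where 21.3% of all genes were, and DESeq2 called 0 members higher. The 25(OH)D libraries lay wholly below the control libraries in 26 members (22.9% of all genes) and wholly above them in 0 members (22.8% of all genes). The falls were small. The median log2 fold change of the members was -0.19 (quartiles -0.26 and -0.051), against -0.011 over all genes (quartiles -0.23 and 0.22), and no member passed the limits drawn in the study, an absolute log2 fold change over 1 with an unadjusted p under 0.05, which 2.63% of all genes passed downward and 4.02% upward. Most members are abundant, and among the 1992 genes with a mean of at least 100 CPM 30.4% were lower and 31.4% higher, while 21 of the 30 members at that level were lower. By counts, all 39 members together took 2.67%, 2.63% and 2.72% of the control libraries and 2.23%, 2.22% and 2.25% of the 25(OH)D libraries.

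**Figure D1:**
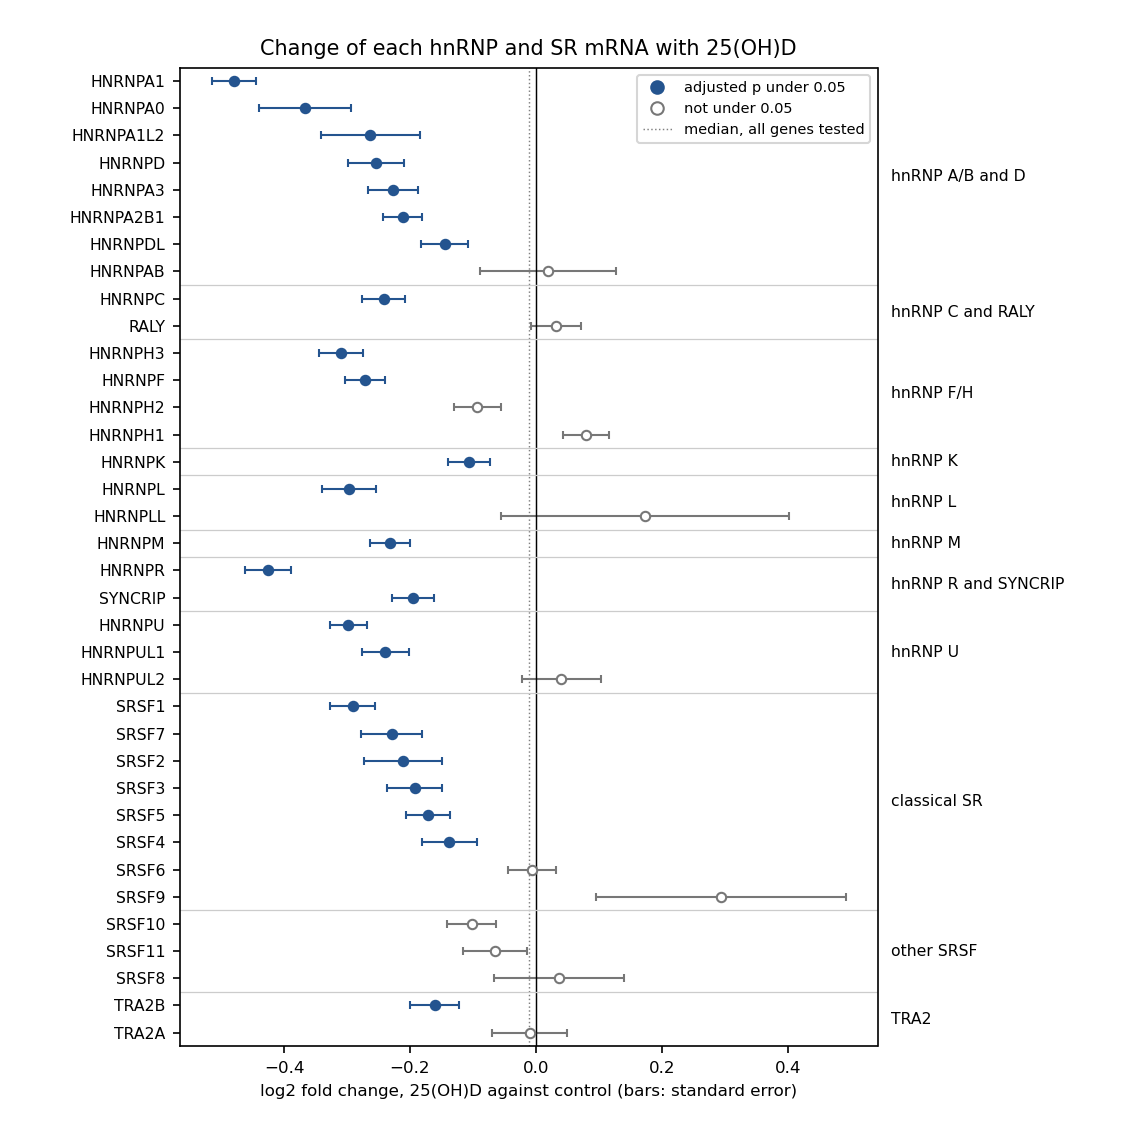
Log2 fold change of each tested member with 25(OH)D against control (x axis) with its standard error as a bar, members grouped by structural class (y axis), filled points for an adjusted p under 0.05 and a dotted line at the median of all genes tested. The 24 filled points lie left of 0, from -0.48 to -0.11, and the open points lie from -0.10 to 0.29.

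The hnRNP group held 17 members that fell of 23 tested, with a median log2 fold change of -0.23. The SR group held 7 of 13, with a median of -0.14. Over all genes tested, 16.5% were lower. The hnRNP members together took 2.26%, 2.22% and 2.29% of the counts in control and 1.86%, 1.84% and 1.86% with 25(OH)D. The SR members took 0.414%, 0.413% and 0.428% in control and 0.371%, 0.372% and 0.387% with 25(OH)D. Neither pair of ranges overlapped.

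HNRNPA1, which binds splicing silencers and shuttles to the cytoplasm with mRNA, had the largest fall of any member. It was at 2807, 2888 and 3054 CPM in control and at 2114, 2047 and 2114 CPM with 25(OH)D. The 25(OH)D libraries were tightly grouped and far below all control libraries, and the gene fell by 28.3% (log2 fold change -0.48, SE 0.0352, adjusted p = 9.70e-08). The gene lies at chr12:54280193-54287088 on the plus strand (GRCh38), and 17.5% of the 100-base stretches of its transcripts also occur in other genes, 10.4% in HNRNPA1P48 alone, so that reads from its processed copies could be assigned to either.

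Other members of its class fell as well. HNRNPA2B1, a neighbour in structure that sorts RNAs and binds methylated adenosine, was the most counted member, at 4052, 4019 and 4225 CPM in control and 3572, 3480 and 3567 CPM with 25(OH)D. HNRNPA3 was at 1522, 1422 and 1583 CPM in control and 1305, 1257 and 1305 CPM with 25(OH)D, and 11.0% of its stretches also occur in other genes, 8.77% in HNRNPA3P6. HNRNPA0, which binds AU-rich elements, was scarce, at 34.4, 29.03 and 32.2 CPM in control and 24.6, 25.7 and 23.8 CPM with 25(OH)D. In each of these genes the groups did not overlap, with log2 fold changes of -0.21 (SE 0.0306) for HNRNPA2B1, -0.23 (SE 0.0395) for HNRNPA3 and -0.37 (SE 0.0735) for HNRNPA0 and adjusted p-values of 8.56e-05, 4.32e-04 and 0.00133. HNRNPA1L2, an intronless relative of HNRNPA1 that shares 22.4% of its stretches with it, was at 24.3, 26.7 and 27.7 CPM in control and 23.0, 19.9 and 22.6 CPM with 25(OH)D. Its fall (log2 fold change -0.26, SE 0.0782, adjusted p = 0.0180) was called with all libraries and lost without control 2 (adjusted p = 0.0708), control 3 (0.0791) or 25(OH)D 2 (0.112).

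HNRNPD, also known as AUF1, which promotes the decay of messages with AU-rich elements, was at 1198, 1162 and 1322 CPM in control and 1028, 1002 and 1059 CPM with 25(OH)D. Its relative HNRNPDL was at 348, 356 and 366 CPM in control and 331, 316 and 321 CPM with 25(OH)D. The groups did not overlap for either gene. HNRNPD fell by 16.1% (log2 fold change -0.25, SE 0.0445, adjusted p = 4.73e-04) and HNRNPDL fell by 9.55% (-0.14, SE 0.0369, adjusted p = 0.00719), and the call for HNRNPDL was lost without 25(OH)D 2 (adjusted p = 0.0604). HNRNPAB, the remaining member of the class, was not called (log2 fold change 0.019, SE 0.108, adjusted p = 0.915). It ran from 308 to 474 CPM within the control group alone, so that a change as small as that of HNRNPA2B1 was not detectable.

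Among the members that bind G tracts, HNRNPF and HNRNPH3 fell and HNRNPH1 and HNRNPH2 did not pass the test. HNRNPF was at 890.0, 875 and 896 CPM in control and 742, 742 and 720.2 CPM with 25(OH)D. HNRNPH3 was at 629, 626 and 634 CPM in control and 526, 500.0 and 497 CPM with 25(OH)D. Control libraries of both genes lay within a few percent of each other and well above every 25(OH)D library. HNRNPF fell by 17.2% (log2 fold change -0.27, SE 0.0323, adjusted p = 1.34e-05) and HNRNPH3 fell by 19.3% (-0.31, SE 0.0349, adjusted p = 8.01e-06). HNRNPH1, the most counted of the class, was at 1014, 1054 and 1091 CPM in control and 1141, 1081 and 1116 CPM with 25(OH)D, with groups that overlapped (log2 fold change 0.079, SE 0.0364, unadjusted p = 0.0484, adjusted p = 0.115). Without control 3 its adjusted p was 0.0337 (log2 fold change 0.11). HNRNPH2 lay slightly lower in every 25(OH)D library (log2 fold change -0.093, SE 0.0377) and missed the threshold (adjusted p = 0.0735).

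The U class contains large proteins that bind chromatin as well as RNA. HNRNPU, also called scaffold attachment factor A, was at 3248, 3129 and 3172 CPM in control and 2579, 2590.1 and 2597 CPM with 25(OH)D. HNRNPUL1, a relative that takes part in the DNA damage response, was at 342, 328 and 325 CPM in control and 274, 285 and 284 CPM with 25(OH)D. A wide gap lay between the groups of both. HNRNPU fell by 18.7% (log2 fold change -0.30, SE 0.0292, adjusted p = 1.87e-06) and HNRNPUL1 fell by 15.3% (-0.24, SE 0.0374, adjusted p = 1.72e-04). HNRNPU shares 3502 exon bases with COX20 on the opposite strand. HNRNPUL2 (719 to 829 CPM in control, 727 to 864 CPM with 25(OH)D) was not called (log2 fold change 0.041, adjusted p = 0.666), and 42.5% of its stretches also belong to the readthrough gene HNRNPUL2-BSCL2.

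HNRNPR and SYNCRIP (hnRNP Q) are close relatives that bind messages transported in the cytoplasm. HNRNPR was at 854, 862 and 916 CPM in control and 669.8, 643 and 647 CPM with 25(OH)D. SYNCRIP was at 697, 711 and 716 CPM in control and 633, 611 and 612 CPM with 25(OH)D. Neither pair of groups overlapped. HNRNPR fell by 25.5%, next to HNRNPA1 in size (log2 fold change -0.43, SE 0.0369, adjusted p = 5.57e-07), and SYNCRIP fell by 12.6% (-0.19, SE 0.0333, adjusted p = 3.83e-04).

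HNRNPC, which binds uridine tracts and keeps cryptic exons out of messages, was at 638, 641 and 655 CPM in control and 559.9, 539.9 and 536 CPM with 25(OH)D. Every 25(OH)D library was lower (log2 fold change -0.24, SE 0.0340, adjusted p = 6.87e-05). RALY, the other tested member of this class, was not called, with 181 to 192 CPM in control and 188 to 194 CPM with 25(OH)D (log2 fold change 0.032, SE 0.0392, adjusted p = 0.579). With upper-quartile factors, library sizes alone or RPKM, its log2 fold change was between -0.012 and -0.0097.

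HNRNPM, which binds GU-rich sequence, was at 1449, 1422 and 1468 CPM in control and 1238, 1205 and 1253 CPM with 25(OH)D. HNRNPL, which binds CA repeats, was at 132, 130.4 and 133 CPM in control and 112, 104 and 107 CPM with 25(OH)D. Of its stretches, 8.28% also occur in other genes, and it shares 561 exon bases with AC104534.3 on the same strand. HNRNPK, which binds C-rich sequence through KH domains, was at 537, 544 and 555 CPM in control and 499, 513 and 509 CPM with 25(OH)D. All of these were lower in every 25(OH)D library. HNRNPM fell by 14.8% (log2 fold change -0.23, SE 0.0317, adjusted p = 5.24e-05), HNRNPL fell by 18.6% (-0.30, SE 0.0429, adjusted p = 8.85e-05) and HNRNPK fell by 7.07% (-0.11, SE 0.0337, adjusted p = 0.0256). The HNRNPK call held only with all libraries or without control 1, and adjusted p-values were 0.0901 without control 2, 0.0941 without control 3, and 0.113, 0.0745 and 0.0664 without 25(OH)D 1, 2 and 3. HNRNPLL, the relative of HNRNPL that regulates CD45 splicing in lymphocytes, was scarce and spread from 7.90 to 17.3 CPM in control and from 9.90 to 17.3 CPM with 25(OH)D (log2 fold change 0.17, SE 0.229, adjusted p = 0.610).

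**Figure D2:**
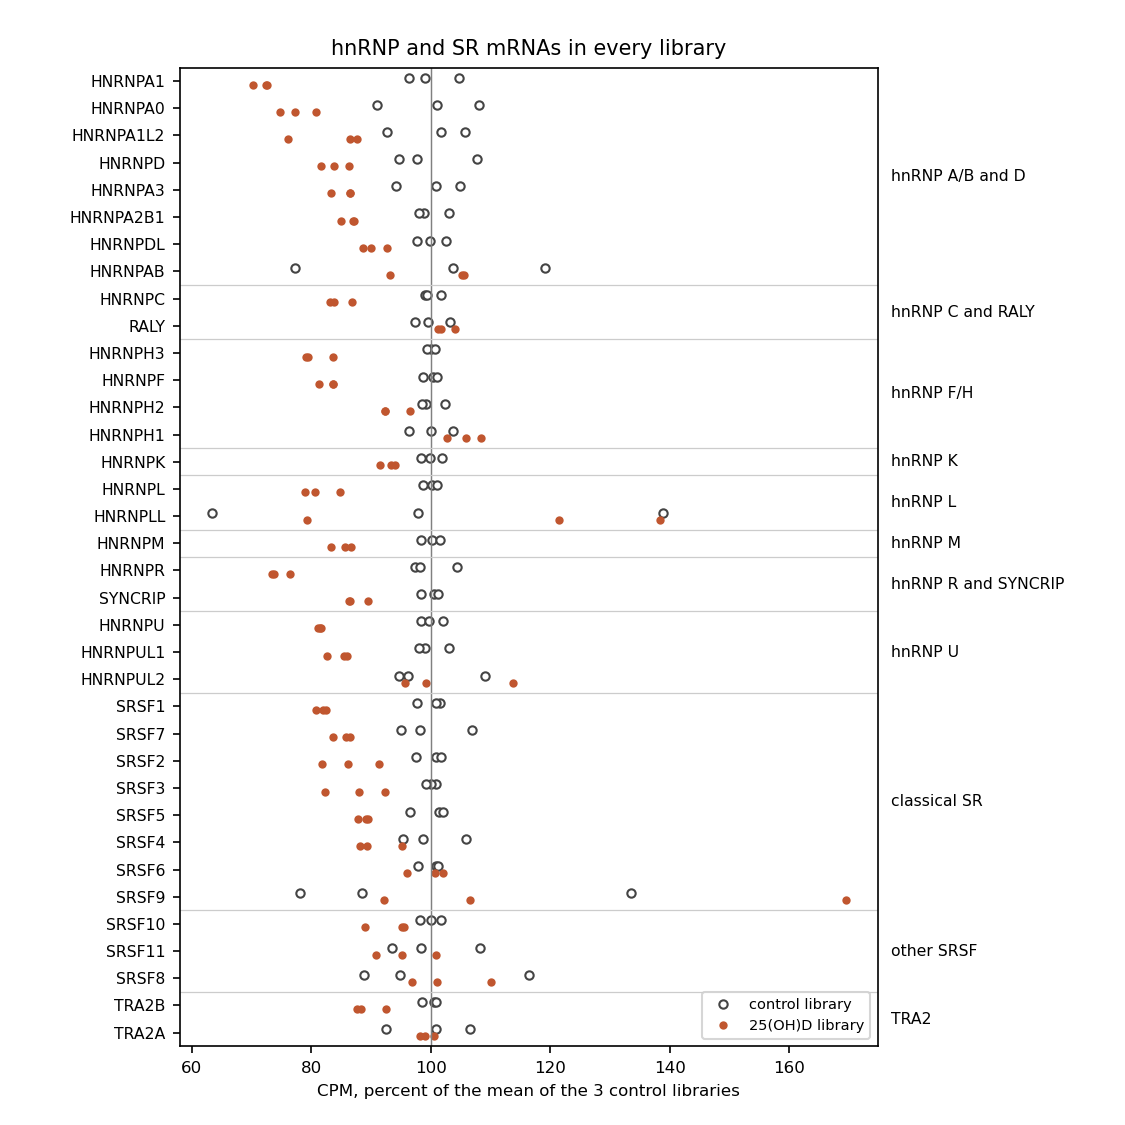
CPM of each tested member in every library as a percent of the mean of its 3 control libraries (x axis), with control libraries as open and 25(OH)D libraries as filled points and members grouped by structural class (y axis). The filled points of HNRNPA1, a member that fell by 28.3%, sit left of all its open points, while those of HNRNPLL and SRSF9 are spread across both sides of the line at 100.

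Of the 8 classical SR proteins (SRSF1 to SRSF7 and SRSF9), 6 fell, where 16.5% of all genes tested were lower. SRSF1, the prototype of the family and a known proto-oncogene product, was at 308, 321 and 318 CPM in control and 259, 260.4 and 255 CPM with 25(OH)D. SRSF7, which takes part in mRNA export, was at 138, 134 and 150.3 CPM in control and 122, 118 and 121 CPM with 25(OH)D. SRSF3, the smallest of the family and also an export adaptor, was at 241, 239.7 and 238 CPM in control and 221, 211 and 197 CPM with 25(OH)D. The groups did not overlap in any of these, with log2 fold changes of -0.29 (SE 0.0359) for SRSF1, -0.23 (SE 0.0483) for SRSF7 and -0.19 (SE 0.0439) for SRSF3 and adjusted p-values of 1.91e-05, 0.00193 and 0.00341. SRSF1 shares 45.7% of its stretches with another annotated gene, AC015813.2, and exon bases with unnamed genes on both strands.

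SRSF5, a member with tandem RNA recognition motifs, was at 516, 542 and 546 CPM in control and 469.7, 476 and 478 CPM with 25(OH)D. SRSF4, of the same build, was at 719, 695 and 771 CPM in control and 651, 642 and 693 CPM with 25(OH)D. SRSF2, which stays in the nucleus and is mutated in myelodysplasia, was at 37.5, 37.8 and 36.2 CPM in control and 30.4, 33.9 and 32.0 CPM with 25(OH)D. The 25(OH)D libraries were the lower ones in all of these, although the highest for SRSF4 came close to the lowest control library. The log2 fold changes were -0.17 (SE 0.0353, adjusted p = 0.00162) for SRSF5, -0.14 (SE 0.0436, adjusted p = 0.0249) for SRSF4 and -0.21 (SE 0.0620, adjusted p = 0.0170) for SRSF2. The SRSF4 call was lost without control 3 (adjusted p = 0.120), 25(OH)D 1 (0.0992) or 25(OH)D 2 (0.136), and the SRSF2 call without control 1 (0.0515), control 2 (0.0718) or 25(OH)D 1 (0.0896). SRSF2 shares 1106 exon bases with MFSD11 on the opposite strand.

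SRSF6, otherwise like SRSF4 and SRSF5 in build, overlapped between the groups, at 331 to 342 CPM in control and 325 to 345 CPM with 25(OH)D (log2 fold change -0.0063, SE 0.0375, adjusted p = 0.918). SRSF9 was the most spread of the SR members within groups, at 199, 132 and 117 CPM in control and 138, 159 and 253 CPM with 25(OH)D, and was not called (log2 fold change 0.29, SE 0.198, adjusted p = 0.287). Without control 1 it was called higher (log2 fold change 0.56, adjusted p = 0.0215). Its coefficient of variation between libraries was 29.4% in control and 33.5% with 25(OH)D, where the median of the tested members was 2.85% and 2.62% and the 95th percentile over 9138 genes at 10 CPM or more was 12.9% in control. SRSF9 shares 1729 exon bases with GATC on the opposite strand.

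None of the 3 other SRSF proteins tested passed. SRSF10, a splicing repressor in its dephosphorylated form, was at 345, 351 and 339 CPM in control and 329, 328 and 307 CPM with 25(OH)D. Each 25(OH)D library was lower, with a log2 fold change of -0.10 (SE 0.0389) that missed the threshold (adjusted p = 0.0581). SRSF11 (log2 fold change -0.065) and SRSF8 (0.037) overlapped between the groups. Of the TRA2 pair, which binds GA-rich exonic enhancers, TRA2B was at 211, 216 and 216 CPM in control and 188, 189 and 198 CPM with 25(OH)D, without overlap (log2 fold change -0.16, SE 0.0385, adjusted p = 0.00479). TRA2A was at 45.3 to 52.1 CPM in control and 48.1 to 49.2 CPM with 25(OH)D (log2 fold change -0.0096, SE 0.0598, adjusted p = 0.922).

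Levels were set between genes per exon length as RPKM. In control, HNRNPA1 (581 RPKM) and HNRNPA2B1 (551 RPKM) stood first with overlapping libraries, followed without overlap by HNRNPF (277 RPKM) and then by HNRNPM (261 RPKM), HNRNPA3 (254 RPKM) and HNRNPU (238 RPKM), whose neighbours in this order overlapped. With 25(OH)D the means of the leading pair changed places, with HNRNPA2B1 at 462 RPKM and HNRNPA1 at 404 RPKM. The highest SR members in control were SRSF11 (122 RPKM), SRSF5 (101 RPKM) and SRSF1 (95.9 RPKM), and the lowest tested member of either family was HNRNPLL (2.14 RPKM). SRSF7, SRSF3 and SRSF10 (34.0 to 35.3 RPKM) followed each other with overlapping control libraries and were not told apart.

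Related members were also set against each other within libraries. Ratios of CPM were computed in each library for 14 pairs chosen after their values had been seen, so that they are a description. In 11 pairs the groups did not overlap. The ratio was lower with 25(OH)D in each of these, a direction set by which gene of a pair was written first. No share without overlap was computed over other gene pairs, so that neither this count nor the p-values below are support. HNRNPA1 to HNRNPA2B1 was 0.693, 0.719 and 0.723 in control and 0.592, 0.588 and 0.593 with 25(OH)D. HNRNPH3 to HNRNPH1 was 0.598 ± 0.0203 in control and 0.456 ± 0.00922 with 25(OH)D (SD, n = 3 each). HNRNPC to RALY was 3.46 ± 0.0652 and 2.86 ± 0.0289, and HNRNPR to SYNCRIP 1.24 ± 0.0355 and 1.06 ± 0.00231. For the opposing pair of HNRNPA1 and SRSF1, the ratio was 9.11, 9.01 and 9.59 in control and 8.17, 7.86 and 8.28 with 25(OH)D, which also did not overlap. A two-sided exact permutation test gives 0.1 as its smallest p with 3 libraries against 3, reached in these 11 pairs (0.127 after Benjamini-Hochberg adjustment over 14). HNRNPD to HNRNPDL (exact p = 0.2), SRSF4 to SRSF6 (exact p = 0.3) and HNRNPL to HNRNPLL (exact p = 0.3) overlapped.

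**Figure D3:**
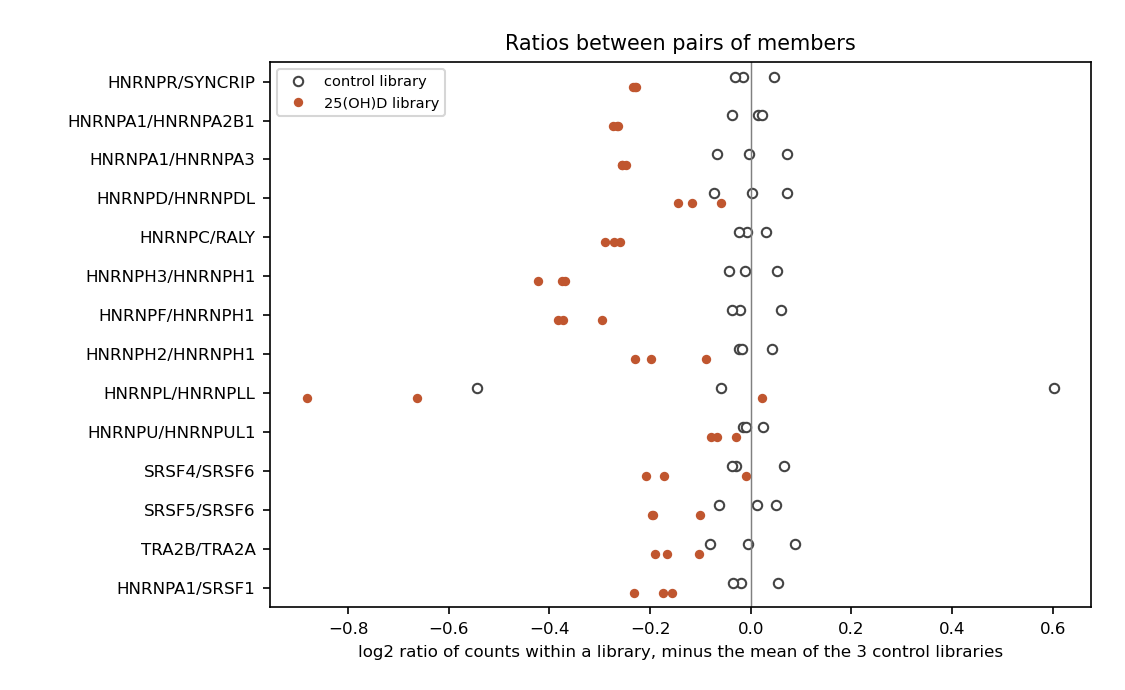
Log2 ratio of counts within each library, less the mean of the 3 control libraries (x axis), for the 14 pairs of members (y axis), with control libraries as open and 25(OH)D libraries as filled points. In 11 pairs all filled points lie left of the open points, as for HNRNPA1 to HNRNPA2B1 (mean ratio 0.711 in control and 0.591 with 25(OH)D).

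The counts were made per gene and do not separate transcript forms. GENCODE 29 annotates a transcript subject to nonsense-mediated decay in 26 of the 36 tested members (72.2%) and in 43.1% of the 12544 protein-coding genes tested, and a retained intron in 69.4% and 57.5%. Base composition of the transcripts and fold change were nearly unrelated over 14477 genes (Pearson r = 0.032, across genes, which are not independent replicates). Differences between libraries of the same group had r from -0.091 (25(OH)D 1 against 25(OH)D 3) to 0.069 (control 1 against control 2) with base composition. Within transcripts of 0% to 42% GC, 10 of 14 members were lower, against 21.0% of all genes in that range, within 42% to 46% 8 of 12 against 20%, and above 46% 6 of 10 against 17.5%. Among the 29 tested members with under 5% of their stretches shared with another gene, 19 were lower and 0 higher. Over all genes tested the shares were 16.5% and 17.3%. The library kit kept strand, and whether the counting used it is not given in the sources used here, so that counts of overlapping genes on opposite strands cannot be told apart.

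Lists of related genes were read beside the members by the same test, and each is given by its counts and median, beside 16.5% lower, 17.3% higher and a median of -0.011 over all genes tested. Of 23 tested hnRNP-like RNA-binding proteins without an HNRNP symbol, 16 were lower and 0 higher, and the median log2 change was -0.20. The lower count of this list was 11 without 25(OH)D 2, 12 without 25(OH)D 3 and 13 without control 1. FUBP1, which binds the far upstream element of MYC, was at 259.9, 266 and 278 CPM in control and 194, 199.9 and 198 CPM with 25(OH)D, well apart (log2 fold change -0.44, SE 0.0390, adjusted p = 6.66e-07). The only member of that list above 0 was TIAL1 (log2 fold change 0.014, adjusted p = 0.855). Of 31 SR-related proteins and splice site factors, 12 were lower and 3 higher (median -0.054). RNPS1, a part of the exon junction complex, fell from 113, 115 and 119.9 CPM to 83.8, 90.1 and 92.0 CPM (log2 fold change -0.39, SE 0.0485, adjusted p = 2.33e-05). Its partner SAP18 rose, from 209, 204 and 212 CPM to 247, 235 and 238 CPM (log2 fold change 0.20, SE 0.0379, adjusted p = 7.32e-04). Without control 2 or without 25(OH)D 2, 7 of that list were lower.

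The enzymes and carriers that act on SR and hnRNP proteins were read next. Of 21 kinases, phosphatases, importins and arginine methyltransferases, 4 were lower and 2 higher (median -0.050), where the share lower was near that of all genes (16.5%) and the share higher below it (17.3%), and 2 were lower without control 2, 25(OH)D 2 or 25(OH)D 3. PRMT5, which methylates arginines of splicing proteins, fell from 33.9, 31.4 and 31.9 CPM to 24.5, 25.6 and 24.3 CPM (log2 fold change -0.39, SE 0.0635, adjusted p = 2.69e-04). TOP1, the topoisomerase that also phosphorylates SRSF1, rose from 1478, 1463 and 1410.5 CPM to 1628, 1599 and 1614 CPM (log2 fold change 0.15, SE 0.0315, adjusted p = 0.00158). Groups were separate for both genes.

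The spliceosome core was mixed. Of its 51 listed proteins, 16 were lower and 4 higher (median -0.070), and 2 were higher without control 2 or without 25(OH)D 2. SNRPA, a protein of the U1 particle, fell from 53.9, 52.7 and 54.7 CPM to 37.1, 38.0 and 39.99 CPM (log2 fold change -0.49, SE 0.0547, adjusted p = 7.42e-06). SF3A3, a subunit of the U2 particle, rose from 334, 342 and 349 CPM to 460.1, 441 and 463 CPM (log2 fold change 0.41, SE 0.0366, adjusted p = 6.69e-07). Of 18 nonsense-mediated decay and exon junction proteins, 4 were lower and 1 higher (median 0.0015), and 2 were lower without control 3 or without 25(OH)D 1, while 2 were higher without 25(OH)D 3. EIF4A3, the anchor of the exon junction complex, was at 116, 102 and 92.8 CPM in control and 84.8, 88.7 and 79.7 CPM with 25(OH)D (log2 fold change -0.30, SE 0.0702, adjusted p = 0.00447), and UPF3B at 189, 197 and 206 CPM and 220.4, 216 and 218 CPM (0.15, SE 0.0407, adjusted p = 0.0126). In both the groups were close without overlapping. Differences between the lists were not tested.

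**Figure D4:**
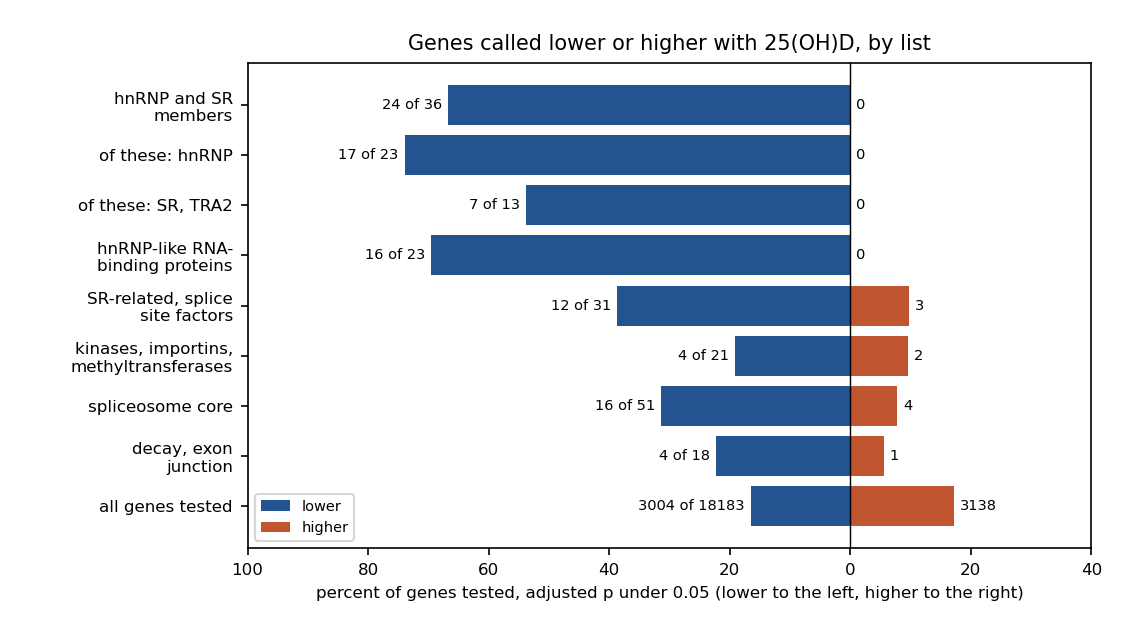
Percent of the tested genes of each list called lower (bars to the left) or higher (bars to the right) with 25(OH)D at an adjusted p under 0.05, with the counts beside the bars and all 18183 genes tested as the last row. The members (24 lower, 0 higher) and the hnRNP-like RNA-binding proteins (16 lower, 0 higher) have bars to the left alone, and all genes have 3004 lower and 3138 higher.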

How the data were processed

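mRNA of the 6 libraries was sequenced in paired reads with a stranded kit. The authors deposited whole-number counts per gene, without normalization, and RPKM values, which equal each count divided by exon length and library total (largest relative difference 2.23e-13). Per the labels, reads were trimmed with Trimmomatic 0.36 and counted with featureCounts of Subread 1.5.1 on GRCh38, and edgeR 3.12.1 was used. The aligner, the annotation release and the strand setting are not given in the sources used here. Counts from 1 to 20 were even in 66.0% to 68.0% of cases per library, and whether both mates of a pair were counted is not given, so that intervals from counting error would not hold. Exon positions equalled those of GENCODE 29 in 35 members.

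Counts were tested in R 4.3.3 with edgeR 4.0.16 (TMM factors, filterByExpr with a minimum count of 10, quasi-likelihood test between the groups, no covariates), with Benjamini-Hochberg adjustment over 18183 genes. The SE is the log2 fold change over the square root of F. The biological coefficient of variation was 0.0788. DESeq2 1.42.0, limma 3.58.1 on log2(RPKM + 1) and log2(RPKM + 0.1), other scalings, no filter, a replicate block and the omission of each library were alternatives. The fit was tested on simulated data. Ratios were compared by two-sided exact permutation tests with scipy 1.17.1 in Python 3.11.15. Per the rule on names, values in every library are given for members called in each class, for the strongest member by p where a class had none, and for the strongest gene by p on either side of each list. Members and lists were chosen with earlier results of these data known. The 90 hnRNP pseudogene rows (13852 counts over the 6 libraries) were left out. Shared stretches are 100-base runs of GENCODE 29 transcripts that also occur in another gene. The collagen marker COL3A1 was not analysed here.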

Additional observations from a re-analysis of the deposited data

Results flagged for a closer look

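HNRNPA1P57, an annotated pseudogene of HNRNPA1 outside the members, held counts above those of the control libraries, in data that no comparison of the report used. It had 0, 0 and 2 counts in control and 20, 30 and 32 counts with 25(OH)D, where its mean was 0.777 CPM ± 0.207 (SD, n = 3). Against the floor of 3 counts per library it was at least 10.0-fold higher, on a gene near the depth limit. It passed the count filter only through the 25(OH)D libraries and was singled out for these values, so that a test gives no support. All 3 libraries with 25(OH)D lay above the control libraries. HNRNPA1 itself fell (log2 fold change -0.48). Of the other 19 tested pseudogene rows, 18 had log2 fold changes below 0 and 5 were called lower, among them HNRNPA1P48, which shares stretches with HNRNPA1 (log2 fold change -0.54, adjusted p = 1.66e-04). Whether reads of the parent genes were assigned to these rows was not tested.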

How the results depend on the processing

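The count of members lower was 24 with RLE factors, no filter and DESeq2, 25 with the replicate block and 26 with upper-quartile factors, library sizes alone and RPKM, and all 24 members called in the report were among those lower in each. Leaving out 1 library at a time gave 20 to 23 members lower and 0 to 1 higher. The higher count was 1 without a filter (SRSF9, adjusted p = 8.35e-09), without control 1 (SRSF9) and without control 3 (HNRNPH1). The SE of SRSF9 was 0.0475 without a filter and 0.198 with it, at log2 fold changes of 0.30 and 0.29. Its libraries overlapped between the groups, so that this p is not read as a rise. At the limits drawn in the study, 0 members were lower. The median log2 fold change of the members was -0.23 with upper-quartile factors, -0.24 with library sizes alone, -0.23 with log2(RPKM + 1) and -0.24 with log2(RPKM + 0.1), where the median of all genes was -0.053, -0.055, -0.030 and -0.052, and -0.19 to -0.17 over the omissions. With these scalings SRSF10 and HNRNPH2 were also called lower, and SRSF10 was also called with the replicate block. The TMM factors of the main fit were 1.010 to 1.018 in control and 0.980 to 0.993 with 25(OH)D. The part of these factors in the moved calls was not tested. The split of all genes moved from 16.5% lower and 17.3% higher to 20.2% lower and 14.8% higher with library sizes alone, and without a filter 9.0% were lower and 9.86% higher.

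Deviations of libraries with the same replicate number correlated at -0.072, -0.012 and -0.046, and no control library correlated best with its own number. Such correlations, from deviations within each small group, cannot exclude that the libraries were made in pairs. The blocked fit called 25 members lower and 0 higher. Sharing of stretches was examined as an alternative chosen after seeing the data.

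In the lists, higher counts were 1 for SR-related proteins and 1 for kinases and carriers with either RPKM scale. For spliceosome core proteins they were 2 with upper-quartile factors, library sizes alone and either RPKM scale. For decay and exon junction proteins they were 0 with upper-quartile factors, library sizes alone and either RPKM scale, and 2 without a filter, with DESeq2 and with the replicate block. Over the omissions, SR-related proteins gave 7 to 10 lower, kinases and carriers 2 to 4 lower, spliceosome core proteins 2 to 4 higher, and decay and exon junction proteins 2 to 5 lower and 1 to 2 higher. The hnRNP-like RNA-binding proteins gave 11 to 15 lower over the same omissions.

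Some uncalled members near 0 changed sign. With upper-quartile factors and library sizes alone the log2 fold changes were -0.00078 and -0.0039 for HNRNPUL2, -0.0036 and -0.0065 for SRSF8, -0.0097 and -0.012 for RALY, and -0.022 and -0.026 for HNRNPAB. With log2(RPKM + 1) and log2(RPKM + 0.1) they were -0.0043 and -0.0043 for HNRNPUL2, -0.011 and -0.012 for RALY, and -0.0046 and -0.0045 for HNRNPAB. SRSF6 gave 5.55e-05 with DESeq2. Over the omissions the extremes were -0.10 and 0.0025 for SRSF11, -0.026 and 0.11 for HNRNPUL2, -0.036 and 0.17 for SRSF8, -0.061 and 0.49 for HNRNPLL, -0.017 and 0.031 for SRSF6, -0.13 and 0.17 for HNRNPAB, and -0.056 and 0.045 for TRA2A. Depth limited HNRNPCL1 and SRSF12, which were under the floor of 3 counts in every library, and HNRNPCL2, which had 0 to 10 counts.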
